A study of Rattus norvegicus with 4 samples.

Results

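The subunits of the GABA-A receptor described here are 7 genes, Gabra3, Gabra4, Gabra5, Gabra6, Gabrb1, Gabrb2 and Gabrd. They were chosen by name, as the probe sets of a rat Affymetrix expression array whose only gene symbol in the platform annotation is one of these. This gave 12 of 8740 non-control probe sets, 2 each for 5 genes and 1 each for Gabra6 and Gabrb1. The array names 4736 genes by a single symbol. The rule itself used no measured value.

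All animals were ovariectomised female rats with a transient stroke, in which a device inside the vessel closed the middle cerebral artery for 2 h. One group received 17beta-estradiol and the other placebo, and the tissue is labelled as cortex on the stroke side. Each group had 2 arrays, called here estradiol 1 and 2 and placebo 1 and 2, each with the pooled RNA of 3 animals. Both groups share the ovariectomy and the stroke, and unoperated or contralateral tissue was not analysed here. The series design text names times of 6 and 24 h, and the sample codes carry a 6 that no label explains, so no time is attached to the values. The comparison asks whether transcripts of the receptor differ with estradiol replacement after stroke.

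GABA-A receptors are chloride channels opened by GABA, the main inhibitory transmitter of the forebrain. Most are built from alpha, beta and gamma subunits. Receptors with the delta subunit, often together with alpha4 in the forebrain or alpha6 in cerebellar granule cells, lie mainly outside synapses and carry a steady inhibitory current. Alpha5 is best known from the hippocampus and deep cortical layers, and beta2 is among the most abundant beta subunits of the brain. Many of the subunit genes lie in clusters, which the choice of members did not use. Gabrd stands apart, with 1157 protein-coding genes between it and Gabrr1, the nearest family gene listed on its chromosome. In the RefSeq annotation of the rat assembly GRCr8, Gabra6 and Gabrb2 have 0 protein-coding genes between them, and so have Gabrb1 and Gabra4.

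RefSeq promoter windows of 300 bases, from 250 before to 50 after each gene's start, were available for all 7 genes. Gabra3 and Gabra6 have 0 CG dinucleotides in this window, as do 5.47% of all 33469 windows, while Gabra4, Gabrd and Gabra5 have 35, 40 and 42, against a median of 7 over all windows. Gabrb1 has 11 and Gabrb2 has 9. The full estrogen response element, GGTCANNNTGACC, which reads the same on both strands, was in 0 of the 7 windows and in 0.0269% of all. Its half-site, GGTCA on either strand, was in the window of 1 gene, Gabrb2, and in 40.5% of all windows, so its presence there is common. It is shown because no other member had one, and a link to the Gabrb2 values below was not tested. The stretch is on the plus strand at chr10:27439820-27439842 in GRCr8, the half-site is in capitals, and its first base is base 38 of the transcript as RefSeq places it.

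Gabrb2 half-site and its surroundings: tttgggatttGGTCAtttccctt

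The values are linear intensities, 1 per probe set and array, which the authors had scaled to a common level. Probe sets bind their targets unequally, so intensities are compared between arrays and not between subunits. The brightest of 23 control probe sets for foreign transcripts stood between 30.1 and 37.8 on the 4 arrays, and a value at or below that of its own array is called background. Between 58.9 and 64.6% of all probe sets lay above it. Medians over all probe sets lay between 55.0 and 57.8. Of 15 neuron markers, 13 or 14 were above background on each array. The probe set of Slc17a7, the vesicular glutamate transporter of cortical excitatory neurons, was at background on every array, at 7.0 to 12.1. Of the same markers, Nrgn stood at 3854 to 5561 and Camk2a was above background on 3 of 4 arrays. The Slc17a7 value is that of 1 probe set, and why it was low was not tested.

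Of the 12 probe sets, 6 were above background on all 4 arrays, 4 on some and 2 on none. Differences were tested with limma on log2(intensity + 16), in a fit over all 5244 probe sets that passed a filter on low means over the 4 arrays. The filter kept 8 of the 12, from 6 genes, and left Gabrb1 without a tested probe set. Of these 8, 0 passed a Benjamini-Hochberg adjusted p of 0.05 in limma, where 0% of all 5244 passed. At an unadjusted p below 0.05 it was also 0 of 8, against 3.07% of all (161 probe sets). The smallest two-sided exact permutation p for a single value, with 2 arrays against 2, is 0.333. The fitted log2 fold changes of estradiol over placebo ran from -0.35 to 0.64, with 3 above 0 and 5 below and a median of -0.02. Over all tested probe sets the median was 0.01, with 2706 above 0 and 2538 below. Every adjusted p of the 8 was 0.998 in limma. In bulk tissue, fewer cells of a type and less RNA per cell cannot be told apart.

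**Figure D1:**
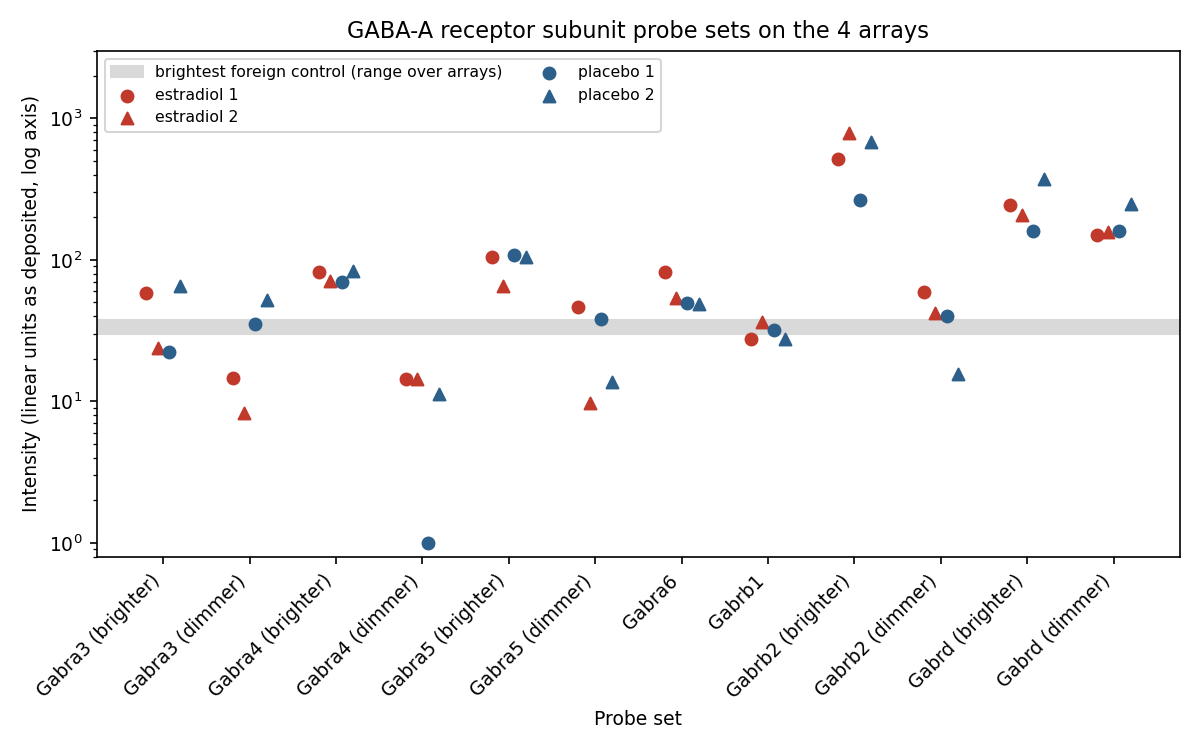
Intensity of each of the 12 probe sets (log axis, linear units as deposited) on the 2 estradiol arrays (red) and the 2 placebo arrays (blue), circles for pool 1 and triangles for pool 2; the grey band spans the brightest foreign control, 30.1 to 37.8. The arrays of one group often lie as far apart as the groups, as for the brighter Gabrb2 probe set, where placebo 1 is at 266 and placebo 2 at 679.

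Gabrb2, which encodes the beta2 subunit that forms part of the GABA binding site with an alpha subunit, had the highest fitted log2 fold changes of the 8 tested probe sets. Its brighter probe set (rc_AA891476_at) stood at 516 in estradiol 1, 783 in estradiol 2, 266 in placebo 1 and 679 in placebo 2. The groups overlapped, since placebo 2 lay above estradiol 1, and the low array was placebo 1. The estradiol mean was 649 ± 189 (SD, n = 2) and the placebo mean 473 ± 292 (SD, n = 2). The log2 fold change was 0.56 ± 0.41 (SE), with a 95% interval of -0.40 to 1.52, or 0.757-fold to 2.86-fold. The 2 placebo arrays differed by 1.30 on the log2 scale, more than the groups did. Without placebo 1 the value turned to -0.09. Without placebo 2 it was 1.21, with an unadjusted p of 0.0116 and an adjusted p of 0.956 in limma, in a fit with 1 placebo array that gave 224 of all 5244 probe sets an unadjusted p below 0.05.

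The dimmer Gabrb2 probe set (X15467cds_at) stood at 58.9 in estradiol 1, 42.0 in estradiol 2, 40.3 in placebo 1 and 15.7 in placebo 2. Here the groups did not overlap, but by a margin of 42.0 against 40.3, and they did overlap after quantile normalization or median centring. The log2 fold change was 0.64 ± 0.42 (SE), with an interval of -0.33 to 1.62. The low array was placebo 2, at background, and not placebo 1. Without placebo 1 the value was 1.06 and without placebo 2 it was 0.23. The mean of this probe set over the 4 arrays, 39.2, was just above the filter at 37.5. Its group means were 50.45 with estradiol and 28.0 with placebo, so it was tested only through its estradiol values. The probe sets of this gene shared the sign of the fitted difference but not the array on which it rested. Because of the filter, the shared sign is not counted as agreement between them. Among all tested probe sets, 7.70% had a change at least as large as that of the brighter one and 5.23% as that of the dimmer one.

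Gabrb1 encodes the beta1 subunit, a neighbour of Gabra4 in the genome. Its probe set (X15466cds_at) was at background on every array, at 27.8 in estradiol 1, 36.4 in estradiol 2, 31.8 in placebo 1 and 27.6 in placebo 2. It was not tested, and no direction can be read from it.

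Gabrd encodes the delta subunit of extrasynaptic receptors, and both of its probe sets were above background throughout. The brighter one (L08496cds_s_at) stood at 245 in estradiol 1, 206 in estradiol 2, 161 in placebo 1 and 374 in placebo 2. The estradiol arrays lay between the placebo arrays. The log2 fold change was -0.13 ± 0.36 (SE), interval -0.97 to 0.71. It became 0.44 without placebo 2 and -0.70 without placebo 1.

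The dimmer Gabrd probe set (M35162_at) stood at 149 in estradiol 1, 157 in estradiol 2, 160 in placebo 1 and 248 in placebo 2. Both estradiol arrays were below both placebo arrays, and estradiol 2 and placebo 1 were 157 and 160. Means were 153 ± 6.01 (SD, n = 2) and 204 ± 62.0 (SD, n = 2), a log2 fold change of -0.35 ± 0.26 (SE), interval -0.95 to 0.25. Without placebo 2 the value was -0.06. Both probe sets were highest in placebo 2. Without placebo 1 they gave -0.70 and -0.64, with unadjusted p of 0.0423 and 0.0496 in limma and adjusted p of 1. That fit had 1 placebo array, assumed to vary like the estradiol pair, and gave 206 of all 5244 probe sets an unadjusted p below 0.05. The interval of the dimmer probe set spans 0.517-fold to 1.19-fold, so these arrays do not show that the delta subunit transcript was alike in both groups.

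Gabra4 encodes the alpha4 subunit, a common partner of delta in the forebrain. Its brighter probe set (L08493cds_s_at) stood at 82.1 in estradiol 1, 71.1 in estradiol 2, 70.1 in placebo 1 and 83.5 in placebo 2. It had the least spread over the 4 arrays of the 6 tested genes, with an SD of 0.11 on the log2 scale, each gene taken by its brighter tested probe set. The log2 fold change was 0.00 ± 0.26 (SE), interval -0.61 to 0.60, and it ran from -0.11 without placebo 1 to 0.10 without placebo 2. The other Gabra4 probe set (S55933_i_at) was at background on every array, at 14.3 in estradiol 1, 14.5 in estradiol 2, 1.0 in placebo 1 and 11.3 in placebo 2, and was not tested.

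Gabra6 encodes the alpha6 subunit, known chiefly from cerebellar granule cells. Its only probe set (L08495cds_s_at) was above background on all arrays, at 82.1 in estradiol 1, 54.0 in estradiol 2, 49.5 in placebo 1 and 48.9 in placebo 2. The groups did not overlap, and estradiol 1 stood apart from the other arrays. Means were 68.0 ± 19.9 (SD, n = 2) and 49.2 ± 0.424 (SD, n = 2), a log2 fold change of 0.35 ± 0.31 (SE), interval -0.37 to 1.06. Without estradiol 1 it was 0.10. Of a list of cerebellar markers, 6 had a probe set, and 5 or 6 were above background on each array, with summed intensities of 1742 in estradiol 1, 2042 in estradiol 2, 1402 in placebo 1 and 1947 in placebo 2. Most of these 6, such as Pcp4, Calb1 and Itpr1, are also expressed in the forebrain. Neurod1, a transcription factor of granule cells and other neurons, was above background on 1 of 4 arrays. Grm4 and Grin2c, also on the list, were above background on all 4. Part of the signal of an array probe set can come from related transcripts, and the name ending s_at marks probes shared with other transcripts. The tested Gabra3 and Gabra4 probe sets, the brighter Gabrd one and the dimmer Gabra5 one have the same ending. What this adds to the Gabra6 value or to theirs was not tested.

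Gabra5 encodes the alpha5 subunit. Its brighter probe set (X51992_at) stood at 104 in estradiol 1, 65.6 in estradiol 2, 108 in placebo 1 and 105 in placebo 2. The groups did not overlap, but estradiol 1 was close to both placebo arrays, and estradiol 2 was the low array. The log2 fold change was -0.31 ± 0.27 (SE), interval -0.95 to 0.33, and -0.03 without estradiol 2. The dimmer probe set (L08494cds_s_at) was not tested. It stood at 46.6 in estradiol 1, 9.8 in estradiol 2, 38.1 in placebo 1 and 13.6 in placebo 2. Pool 1 was above background and pool 2 at background in both groups, and the difference between groups was 0.01 on the log2 scale.

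Gabra3 encodes the alpha3 subunit, and its probe sets differed in which arrays were at background. One (L08492cds_s_at) stood at 58.4 in estradiol 1, 23.8 in estradiol 2, 22.3 in placebo 1 and 65.4 in placebo 2, so each group had 1 array above background and 1 at background. Its log2 fold change was -0.04 ± 0.50 (SE), interval -1.19 to 1.12, the widest of the 8. It ran from -0.58 without placebo 1 to 0.51 without placebo 2. The other (X51991_at) stood at 14.7 in estradiol 1, 8.3 in estradiol 2, 35.0 in placebo 1 and 51.6 in placebo 2. Both estradiol values and placebo 1 were at background, and placebo 2 was above it. The filter left this probe set out. In the limma fit without a filter it had a log2 fold change of -1.10 ± 0.31 (SE), with an unadjusted p of 0.0103 and an adjusted p of 0.999. With 3 of 4 values at background, the size of that difference was not measured.

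**Figure D2:**
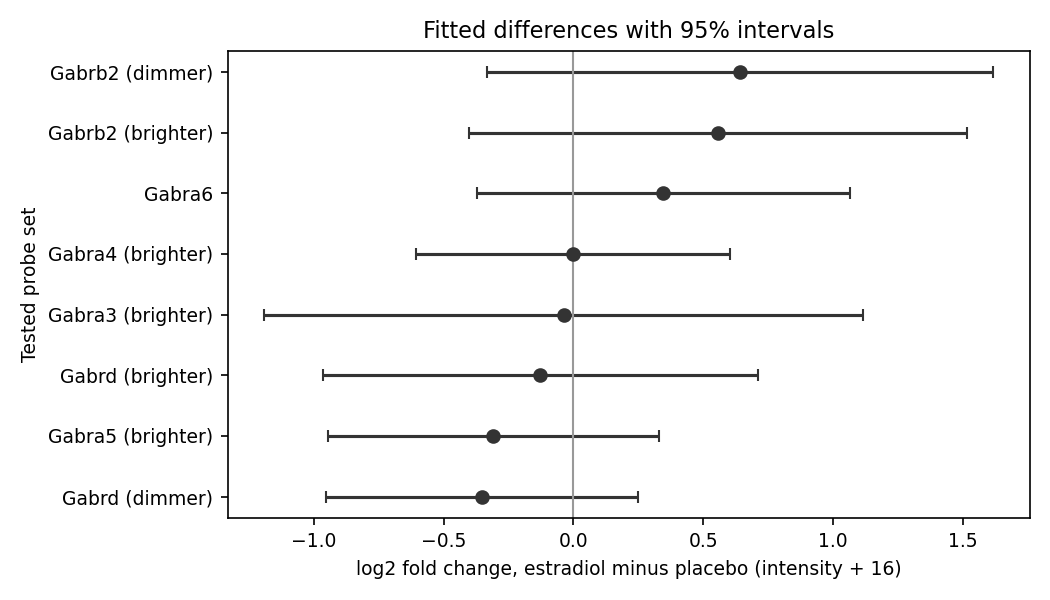
Fitted log2 fold change of estradiol over placebo for the 8 tested probe sets (points), with 95% intervals from limma (bars), in order of size; brighter and dimmer refer to the mean of each probe set over the 4 arrays. Every interval includes 0, from the dimmer Gabrb2 probe set at 0.64 to the dimmer Gabrd probe set at -0.35.

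Over all 12 probe sets, both estradiol arrays lay above both placebo arrays for 3 (the dimmer Gabrb2, Gabra6 and the dimmer Gabra4) and below both for 3 (the brighter Gabra5, the dimmer Gabrd and the dimmer Gabra3). The dimmer Gabra4 probe set was at background on all 4 arrays and the dimmer Gabra3 probe set on 3, so these 2 orders lie within background in whole or in part. Groups did not overlap for 30.8% of all 8740 probe sets. Of the 8 tested, 2 lay above and 2 below, where these shares were 15.4% and 14.3% of all tested probe sets and 29.7% together. Quantile normalization or median centring left 1 above and 2 below, since the dimmer Gabrb2 probe set then overlapped. For 8 of 8 the larger of the differences within a group exceeded the difference between the groups on the log2 scale, as it did for 81.5% of all tested probe sets.

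**Figure D3:**
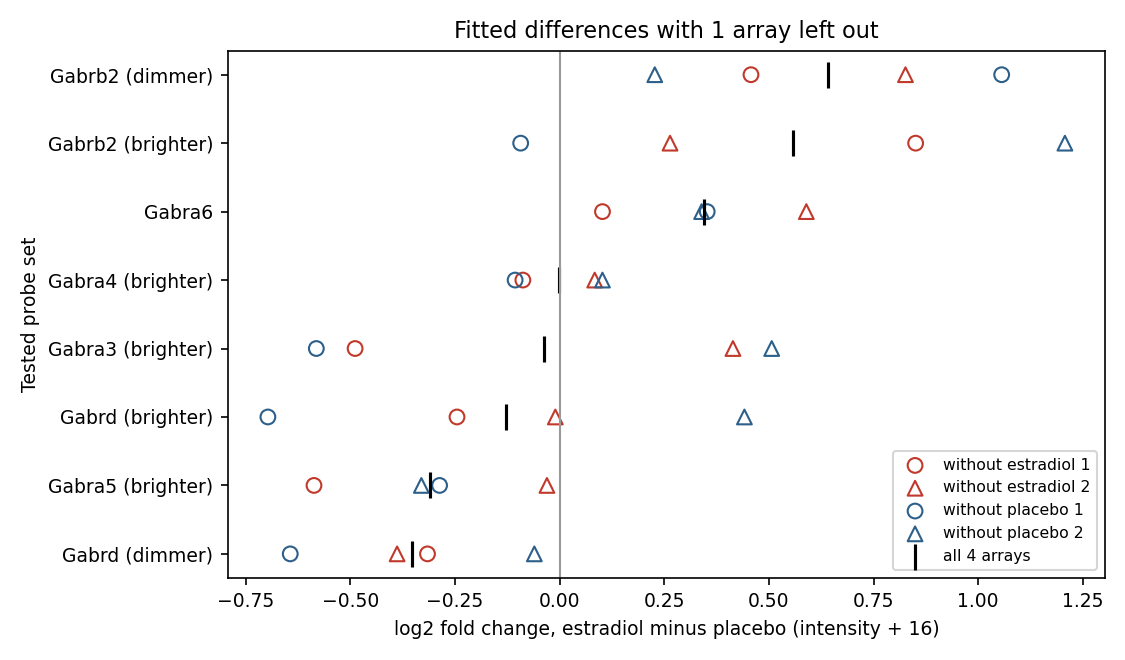
Fitted log2 fold change of the 8 tested probe sets with all 4 arrays (black bars) and with 1 array left out (open symbols, coloured and shaped by the array left out). The brighter Gabrb2 value runs from -0.09 to 1.21 and the brighter Gabrd value from -0.70 to 0.44, while Gabra4 stays within -0.11 to 0.10.

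By array, placebo 1 was the lowest for 4 of the 6 tested subunit genes (Gabra3, Gabra4, Gabrb2 and Gabrd, each by its brighter probe set), against 30.7% of the 3181 tested genes. For Gabra3 and Gabra4 placebo 1 was barely below estradiol 2, at 22.3 against 23.8, both background, and 70.1 against 71.1. The dimmer probe sets of Gabra3, Gabrb2 and Gabrd were lowest in estradiol 2, placebo 2 and estradiol 1. That of Gabra4 was lowest in placebo 1, but at background throughout. The summed intensity of the 7 genes was 1115 and 1239 with estradiol, 710 in placebo 1 and 1383 in placebo 2, a sum that follows Gabrb2 and Gabrd. Placebo 1 was also the lowest array for 8 of 14 tested neuron markers. The median deviation of these markers from each gene's mean was -0.17 in placebo 1 and 0.26 in placebo 2 on the log2 scale. Markers of choroid plexus and meninges went the other way. All 7 measured were above background on every array, and their summed intensity was 2366 in estradiol 1, 6912 in estradiol 2, 12866 in placebo 1 and 1339 in placebo 2. Ttr, the choroid plexus gene of transthyretin, followed the same order, from 74.3 in placebo 2 to 8034 in placebo 1. Oligodendrocyte markers summed to 20388 in placebo 1 and to between 12394 and 16351 elsewhere. The part of these differences between pools in the subunit values was not tested.

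The genes whose values over the 4 arrays were most like those of Gabrb2, the member that varied most (SD 0.67), were Ppp2r3a, Gckr, Atp1b1, Gad1 and Ciao1. Likeness was the root mean square difference of log2 values, each probe set centred on its own mean over 4 arrays. It was 0.02 for Ppp2r3a, 0.04 for Gckr, 0.07 for Atp1b1, 0.08 for Gad1 and 0.09 for Ciao1, against a median of 0.59 over 4325 probe sets. With 4 arrays this describes the order and size of the values, low in placebo 1 and high in estradiol 2, and no more. Ppp2r3a, Gckr and Ciao1 were at background in placebo 1, at 16.8, 18.6 and 34.8, so how low they were there was not measured.

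Other genes of GABA signalling were read from 6 lists with 53 genes, of which 37 had a probe set and 25 a tested one. Of these, 0 passed in limma and 0 had an unadjusted p below 0.05. There were 15 above 0 and 10 below, or 14 and 11 after quantile normalization or median centring, with a median of 0.09. Single arrays moved this median, to -0.02 without estradiol 2 (12 above and 13 below), 0.02 without placebo 1 and 0.19 without placebo 2, and median centring gave 0.06. Groups did not overlap for 4 of the 25, or 16% (3 above, 1 below), against 30.1% of all tested genes by 1 probe set each. Placebo 1 was the lowest array for 14 of the 25, against 30.7% of the 3181 tested genes. These 14 include Gad2 and Glra1, for which placebo 1 was at background.

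Of 8 other receptor subunits with a probe set, 5 were not tested. Gabra2, the alpha2 subunit, stood at 115 in estradiol 1, 125 in estradiol 2, 82.0 in placebo 1 and 93.6 in placebo 2. Its groups did not overlap, and its log2 fold change of 0.39 ± 0.23 (SE) lay between 0.31 and 0.47 with 1 array left out. Gabrg1, the gamma1 subunit, had 0.01 ± 0.25, negative after quantile normalization or median centring. Gabrr1, a rho subunit best known from the retina, had -0.51 ± 0.48, resting on estradiol 2, which was at background, at 31.5 against 79.2 to 122 on the other arrays. Without estradiol 2 it was 0.25.

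For GABA synthesis and vesicle loading, Gad1, a glutamate decarboxylase, stood at 545 in estradiol 1, 779 in estradiol 2, 295 in placebo 1 and 639 in placebo 2. Placebo 1 was again low, and the log2 fold change of 0.57 ± 0.36 (SE) became 0.03 without it. Slc32a1, the vesicular GABA transporter, had 0.55 ± 0.32 by its brighter probe set, and 0.16 without placebo 1. Its dimmer probe set was at background on both estradiol arrays, at 29.1 and 22.0, and stood at 70.5 and 30.4 on the placebo arrays, so no size is given for it. Gad2, the other decarboxylase, had -0.11 ± 0.40, and 0.38 without placebo 2, with placebo 1 at background.

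Slc12a5 encodes KCC2, the neuronal chloride exporter that sets the driving force of these receptors. It stood at 835 in estradiol 1, 814 in estradiol 2, 401 in placebo 1 and 790 in placebo 2. The groups did not overlap, yet placebo 2 was close to both estradiol arrays. The log2 fold change was 0.54 ± 0.31 (SE), and 0.06 without placebo 1. Slc12a7, another potassium chloride cotransporter, had -0.24 ± 0.57, and 0.57 without placebo 1, with 2 of 4 arrays at background. Of proteins that cluster or move the receptor, gephyrin (Gphn) had 0.28 ± 0.34, -0.15 without estradiol 2, and Nsf, a fusion ATPase, had -0.18 ± 0.29, 0.19 without placebo 2. The other Nsf probe set gave 0.11. The GABA-B receptor genes, each by its brightest probe set, had 0.09 ± 0.22 for Gabbr1 and -0.18 ± 0.25 for Gabbr2. Other tested probe sets gave 0.16, -0.43 and -0.93 for Gabbr1, the last with estradiol 2 at background, and -0.14 and -0.52 for Gabbr2. Groups did not overlap for the Gabbr1 probe set at 0.16 and for the last 2 of Gabbr2. Without estradiol 1 Gabbr1 had -0.09, and without placebo 2 Gabbr2 had 0.13. Glra1, the only tested glycine receptor gene, was above background on 1 of 4 arrays, placebo 2, so its fitted value is not given.

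**Figure D4:**
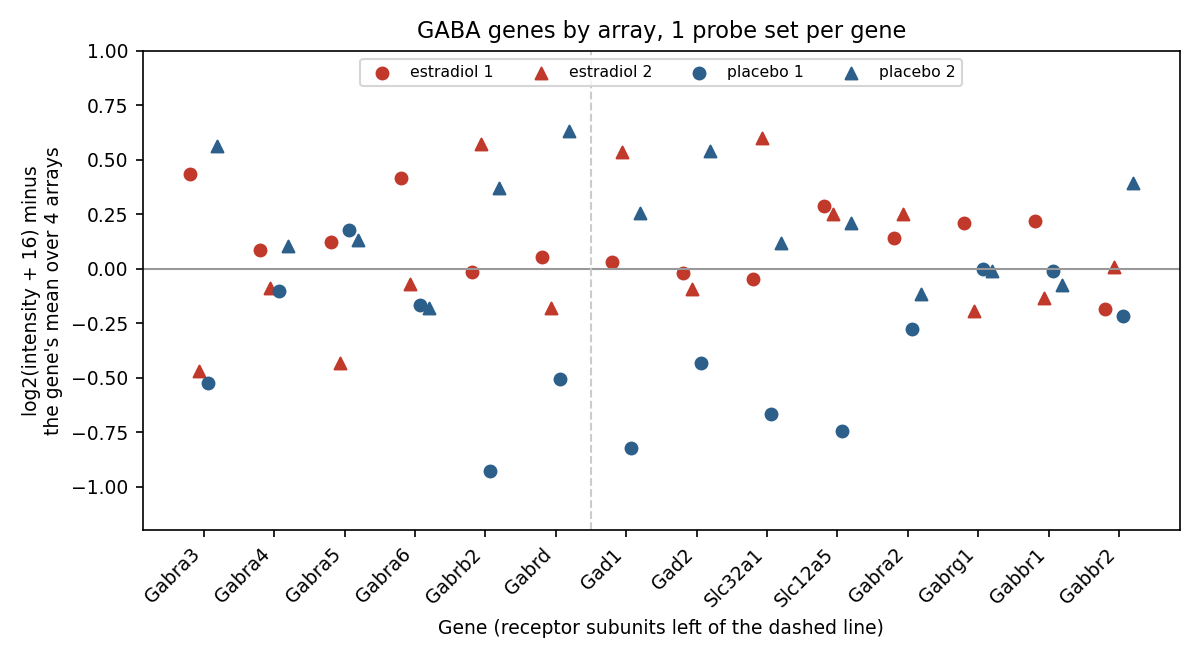
log2(intensity + 16) minus the mean over the 4 arrays for the 6 tested subunit genes (left of the dashed line) and 8 other genes of GABA signalling, each by its brightest tested probe set; colours and shapes mark the arrays. Placebo 1 (blue circles) is at -0.93 for Gabrb2, -0.82 for Gad1, -0.67 for Slc32a1 and -0.74 for Slc12a5, and near 0 for Gabrg1 and Gabbr1.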

How the data were processed

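Per the labels, RNA of 4 pools was hybridised to 4 arrays, which gave 1 intensity per probe set. The deposited intensity columns share a trimmed mean of about 150.2, so the authors had scaled them; the program was not given in the sources used here. Of 8799 rows, 59 controls were left out. Array medians lay within 0.056 on the log2 scale (limit 0.1), so no further scaling was applied. Probe sets with a mean below the 40th percentile (37.5) were not tested. The offset of 16 understates changes of dim probe sets. Tests were two-sided limma 3.58.1 (R 4.3.3) fits with an intensity trend, 2 residual and 5.63 prior degrees of freedom, checked on simulated data. Tables and plots used Python 3.11.15, pandas 2.3.3 and matplotlib 3.10.9.

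Members, gene lists and tests were chosen with earlier results of these data known. Named were all member probe sets, the highest and lowest gene of each list by its brightest tested probe set, and the 5 probe sets most like the most variable member. Slc32a1, Gabrg1, Neurod1, Grm4, Grin2c, Pcp4, Ttr, Slc17a7, Camk2a, Rgs9, Penk, Pdyn and Adora2a, and the genes in the plot of deviations by array, were added after values were seen. Alternatives were offsets of 1 and 64, no filter, a 60th percentile filter, quantile normalization, median centring, no trend, the pool number as a block, 1 probe set per gene, and each array left out. P-values rest on the spread between pools, which the fit takes as independent. For each probe set this spread is in part drawn from other probe sets of like intensity. The number of arrays limits the precision. Promoters and gene order came from RefSeq tables of assembly GRCr8, which left every symbol as it was.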

Additional observations from a re-analysis of the deposited data

How the results depend on the processing

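No probe set was called under any of the 12 refits with limma (0 over all probe sets and 0 of the members), and the lowest adjusted p of a tested member was 0.956. At an unadjusted p below 0.05 in limma there were 146 to 224 probe sets over the refits on the same 5244, 337 of all 8740 and 89 of those above the 60th percentile. The pool number as a replicate block left 0 calls and 210 at an unadjusted p below 0.05 in limma. The difference between pools 1 and 2 had a correlation over probe sets of 0.04 between the groups. This single value cannot tell whether pools of the same number were processed together, since opposite differences in tissue content could hide it. No label explains the numbers. Of the 8 member probe sets, 4 changed sign, each only with an array left out. At an unadjusted p below 0.05 there were 2 members without placebo 1, 1 without placebo 2 and 1 of 12 with no filter, and 0 in the other refits. Gabra3 (L08492cds_s_at) ran from -0.58 to 0.51, with 0.41 without estradiol 2 and 0.51 without placebo 2. Gabra4 (L08493cds_s_at) ran from -0.11 to 0.10, with 0.08 without estradiol 2 and 0.10 without placebo 2. The brighter Gabrb2 probe set ran from -0.093 (without placebo 1) to 1.21, and the brighter Gabrd probe set from -0.70 to 0.44 (without placebo 2). The other 4 kept their sign in every refit that held them. The median of all tested members was 0.0021 with no filter; it ran from -0.20 without placebo 1 to 0.28 without placebo 2, and was -0.22 over the 4 probe sets above the 60th percentile. Offsets moved the dimmer Gabrb2 value to 0.95 (offset 1) and 0.32 (offset 64).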

Other observations

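Among markers of other cells and regions, all values are log2 fold changes of estradiol over placebo ± SE from the same limma fit, and 0 genes passed the adjusted threshold (lowest adjusted p 0.285, for Tac1). Interneuron markers had 3 of 11 genes above 0, from Cck at -0.55 ± 0.18 to Calb1 at 0.49 ± 0.34. Calb1 was low in placebo 1, at 125 against 265 to 279 elsewhere. Striatum markers had 6 of 9 above 0, from Chat at -0.44 ± 0.35 to Tac1 at 1.68 ± 0.21. Of these 6, Rgs9 was above background only in estradiol 2. Its means were 85.35 with estradiol and 18.6 with placebo, so it was tested only through its estradiol values. The summed intensity of the 10 striatum markers on the array was 2849 and 2673 with estradiol and 1927 and 2048 with placebo. Most of this gap lay in Tac1 (381 and 408 against 108 and 116) and Penk (641 and 526 against 174 and 279). The 3 below 0 were Chat, Pdyn and Adora2a. Thalamus markers ran from Calb2 at -0.13 ± 0.23 to Prkcd at 0.16 ± 0.25, hippocampus markers from Grik4 at -0.35 ± 0.32 to Nr3c2 at 0.03 ± 0.27 and cerebellar markers from Itpr1 at -0.03 ± 0.24 to Calb1. Neuron markers had 5 of 14 above 0, from Nrgn at -0.35 ± 0.19 to Nefm at 0.30 ± 0.29. Astrocyte markers had 1 of 7 above 0, from Gja1 at -0.35 ± 0.28 to Slc1a3 at 0.02 ± 0.19, and oligodendrocyte markers 1 of 5, from Mbp at -0.29 ± 0.24 to Mog at 0.01 ± 0.25. Vascular markers had 0 of 6 above 0, from Ocln at -0.83 ± 0.30 to Kdr at -0.08 ± 0.31. Microglia and macrophage markers had 2 of 5 above 0, from Ptprc at -0.47 ± 0.36 to Cx3cr1 at 0.28 ± 0.29, and choroid plexus and meninges markers 4 of 7, from Enpp2 at -0.73 ± 0.62 to Ptgds at 0.20 ± 0.59.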
